A study of Homo sapiens with 8 samples.

Results

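The input RNA of cells carrying guides against METTL16 was compared, gene by gene, with the input RNA of cells carrying a control guide. Of 26830 gene symbols measured, 10967 had a mean of at least 1 TPM over the 4 input libraries. Leaving out 359 small structural RNAs (symbols starting RN7S, RNU, RNY, VTRNA, SNOR, SCARNA or MIR) left 10608 genes, of which 9917 were protein-coding, 339 long non-coding RNAs and 178 transcribed pseudogenes. At the edge of this rule, OBFC1 and CHI3L2 entered with a mean of 1.0000 TPM, and BBS10 and DGKA stayed out with 0.9975 TPM. TPM is a length-scaled share of the transcripts in a library, so it shows shares and not amounts per cell.

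The cells were labelled HEK293T, a human embryonic kidney line, and all came from 1 clone carrying the nuclease Cas9. By lentivirus, 1 culture had received the control guide sgNS, and 3 further cultures had received sgMETTL16-1, sgMETTL16-2 and sgMETTL16-3, each a different guide against METTL16. All 4 cultures were held in blasticidin (10 µg/ml) and puromycin (2 µg/ml) over at least 1 week, and were treated for 5 min with cycloheximide (100 µg/ml), a drug that arrests ribosomes. Ribosomal RNA was depleted, and reads were 51 bases from 1 end. With 1 control culture and 1 culture per guide, guide and culture cannot be told apart. In the main fit the p-values rest on the spread among the 3 METTL16 guides, pooled over genes of similar level. A gene's own spread does not enter its p-value, so a gene on which the guides differ can pass. The depth of the libraries is unknown, because TPM carries no read totals.

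METTL16 is a methyltransferase that places N6-methyladenosine on the U6 spliceosomal RNA and on hairpins in the MAT2A transcript. MAT2A makes S-adenosylmethionine, the methyl donor of such reactions, and METTL16 is known for adjusting MAT2A splicing to the supply of that donor. Replication-dependent histone genes, which appear below, are switched on in S phase, carry no introns and end in a stem-loop instead of a poly(A) tail.

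The markers went against the labelled cell type: those of hepatocytes were all abundant, and those of HEK293 only in part. Which cell line was used was not tested. Of 12 HEK293 markers that were measured, 7 were under 1 rescaled TPM in all 4 inputs, and NEFL, NEFM, VIM, GATA3 and HOXD8 were listed at 0. The other 5 stood at 10 or more in every input. The HEK293 markers summed to 2403 in sgNS and to 3367, 3696 and 4133 in the cultures, nearly all of it KRT8 and KRT18. All 12 hepatocyte markers stood at 10 or more in every input, with a summed level of 13117 rescaled TPM in sgNS and of 19173, 19464 and 14539 in sgMETTL16-1, sgMETTL16-2 and sgMETTL16-3. Of 8 fibroblast markers 6 were under 1 in all inputs, with VIM, COL1A2, COL3A1, DCN and LUM at 0, and of 8 blood markers 4 were under 1. The blood markers summed to 769.8 in sgNS and to 1386, 1736 and 660.4 in the cultures, nearly all of it LYZ. The 7 epithelial markers summed to 666 in sgNS and to 1203, 1635 and 1967 in the sgMETTL16 inputs. In bulk RNA, fewer cells of a type and less RNA per cell cannot be told apart.

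Small structural RNAs took from 64.1% to 71.4% of input TPM, so each library was rescaled to a total of 1000000 without them (rescaled TPM, used throughout for levels). Protein-coding genes then held from 67.2% to 73.4% of a library, and RPPH1, the RNA of RNase P, from 18.1% to 23.9%. RNA45S5, the ribosomal RNA precursor, stood at 1544 in sgNS and at 3228, 2967 and 3542 in the sgMETTL16 inputs, so residual ribosomal RNA also moved with the guide, and its part in the results was not tested. The library of sgMETTL16-2 stood furthest from sgNS, with an SD of 0.721 for the log2 difference over genes, against 0.467 for sgMETTL16-1 and 0.563 for sgMETTL16-3. Among the sgMETTL16 inputs that SD lay between 0.406 and 0.543, so sgMETTL16-1 was no further from sgNS than sgMETTL16-2 was from sgMETTL16-3.

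Changes are given as log2(rescaled TPM + 1), sgMETTL16 minus sgNS, with the median gene of each library set equal, and were tested with limma. The scale understates the change of low genes. Of the 10608 genes 206 passed an adjusted p of 0.05 (1.94%), 117 of them higher (1.10%) and 89 lower (0.839%) in sgMETTL16. Protein-coding genes made up 107 of the higher and 78 of the lower ones. The median change of all genes was -0.05, the 5th percentile was -0.83 and the 95th 0.78. Of the genes past the threshold 203 moved in the same direction in all 3 cultures, as did 6156 of all genes, which share the lone sgNS library.

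The scale matters for these calls. Without centring every change is 0.36 larger, the median gene stands at 0.32, and the limma fit passes 3 genes: IGFBP1, RNVU1-7 and SNAR-C4. Rescaling to protein-coding genes alone, without centring, gives 288 higher and 63 lower (82.1% higher against 56.8% with centring). On TPM as deposited and not centred, 22 were higher and 1 lower (95.7% higher), with the median gene at 0.46. Leaving out sgMETTL16-1 leaves 27 higher and 8 lower genes (77.1% higher), and leaving out sgMETTL16-3 gives 229 and 337 (40.5% higher). Directions below are therefore relative to the median gene. The gene lists below were chosen with earlier results of these data known, so their counts are descriptions and not independent support.

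**Figure D1:**
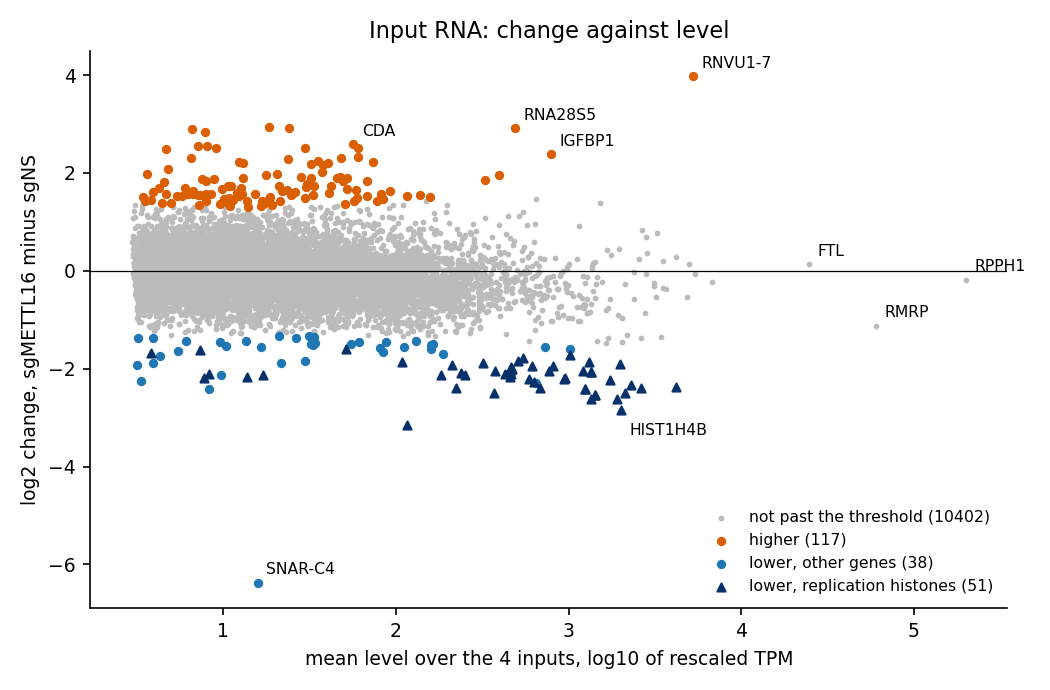
Log2 change (sgMETTL16 minus sgNS, vertical) against mean level over the 4 inputs (log10 of rescaled TPM, horizontal) for 10608 genes, each a point. The 117 higher genes are orange, the 51 lower replication histones are dark triangles, and the other 38 lower genes are blue; the histones gather at high levels.

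The targeted gene comes first. METTL16 (chromosome 17, 2415715 to 2511888, GRCh38) stood at 18.6 rescaled TPM in sgNS and at 13.5, 14.6 and 13.9 in the sgMETTL16 cultures (14.0 ± 0.572, SD, n = 3). All 3 cultures were below the control, but the log2 change of -0.75 (SE 0.40) did not pass (limma adjusted p = 0.512). A guide can disrupt a protein while its mRNA remains, so mRNA alone does not check the knockout.

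MAT2A (chromosome 2, 85539168 to 85545281) stood at 59.0 in sgNS and at 78.6, 57.8 and 38.3 in the cultures. The groups overlapped, and the log2 change of -0.44 (SE 0.42) did not pass (limma adjusted p = 0.812); on TPM as deposited and not centred it was 0.15. Of 29 genes of the methionine and one-carbon cycle 1 passed, where 1.94% of all genes did. BHMT, which remethylates homocysteine with betaine, was at 0.385 in sgNS and at 2.57, 7.66 and 3.11 in the cultures. It rose by 1.50 (limma adjusted p = 0.0196). AMD1, which commits S-adenosylmethionine to polyamine synthesis, was at 0.76 without passing, and the list's median was -0.03. None of 24 genes of the m6A machinery passed (median -0.13), among them the reader HNRNPA2B1 at -1.04 and the helicase and reader YTHDC2 at 0.81.

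Replication-dependent histone mRNAs held the largest block of lower genes. Of 73 listed genes, 56 had enough signal to be tested, and 51 fell (51 of 56, where 0.839% of all genes were lower), with 0 higher. Together the tested members took 9.79% of rescaled TPM in sgNS and 3.52%, 2.28% and 2.32% in the cultures, so every sgMETTL16 library held a smaller share than the control. Their median change was -2.11, and it was -1.69, -2.50 and -2.08 in the single cultures.

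All core classes and the linker class took part. The 11 tested H4 genes all fell, with a median of -2.49, and their summed level was 41988 in sgNS and 12864, 8313 and 8474 in the cultures. So did all 10 H3 genes (median -2.26), all 15 H2A genes (median -2.07) and all 3 H1 linker genes (median -1.86). Of 17 H2B genes 12 fell (median -1.94). The 5 members that did not pass were all H2B genes: HIST1H2BD (-1.26), HIST1H2BI (-1.05), HIST1H2BK (-1.23), HIST2H2BC (-0.96) and HIST2H2BE (-1.05).

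HIST1H4B (chromosome 6, 26026896 to 26027283) had 5166 rescaled TPM in sgNS and 1255, 786 and 816 in the cultures (952 ± 263, SD, n = 3). It fell by 2.84 (SE 0.48, limma adjusted p = 2.74e-06). HIST1H4D (chromosome 6, 26188710 to 26189112) had 3254 in sgNS and 1010, 563 and 551 in the cultures, and fell by 2.62 (SE 0.47, limma adjusted p = 1.35e-05). HIST1H4C, with 4557 in sgNS and 1617, 795 and 673 in the cultures, also fell by 2.62. No sgMETTL16 library came near the control in these 3 genes, and sgMETTL16-1 was the highest of the cultures in each. Histone copies are near-identical, so reads may be split between them and single copies are uncertain, the pseudogene HIST2H2BA (324 in sgNS against 62.9, 39.6 and 38.8) included.

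Without sgMETTL16-1, 4 of the 56 passed (median -2.27), and without centring 0 did, on rescaled TPM (median -1.74) or on TPM as deposited (median -1.46). Over the other alternatives the number lower stayed between 45 and 54. Replacement histones, whose list was added after the others had been seen, had 0 of 10 past the threshold and a median of -0.81. The members with the smallest p were H2AFZ (-1.16) and H2AFX (-1.18), a variant phosphorylated at DNA breaks.

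The promoters of the lower histone genes shared elements that the comparison did not use. RefSeq (GRCh38.p14) gave the 250 bases upstream of the start for 43 of the 51. TATAA, on either strand, was in 40 of the 43 (93.0%), against 10.1% of 8235 promoters of tested protein-coding genes. CCAAT was in 34 (79.1%, against 35.6%), and TGACGTCA, the cyclic AMP response element, in 8 (18.6%, against 3.18%). Median GC content was 42.4% in the histone promoters and 65.6% over all, and the part of base composition in these shares was not tested. A match is only a match of letters. HIST1H2BJ ends at 27132795 and its neighbour HIST1H2AG starts at 27133043, so 1 stretch can lie within the 250 bases of both. The 43 promoters are therefore not independent. Since 51 of the 56 tested histone genes fell, these shares describe the gene family and cannot be tied to the fall. The last 120 bases before the start are shown for 4 lower genes, with TATAA and CCAAT (or their reverse complements) in capitals, all on the minus strand. They are chr6:26027284-26027403 for HIST1H4B, chr6:26189113-26189232 for HIST1H4D, chr6:26032100-26032219 for HIST1H3B and chr6:27132796-27132915 for HIST1H2BJ.
HIST1H4B: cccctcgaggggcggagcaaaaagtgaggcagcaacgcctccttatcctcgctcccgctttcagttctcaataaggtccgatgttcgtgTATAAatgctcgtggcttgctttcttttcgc
HIST1H4D: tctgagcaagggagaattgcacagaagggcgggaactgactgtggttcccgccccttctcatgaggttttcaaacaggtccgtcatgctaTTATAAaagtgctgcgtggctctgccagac
HIST1H3B: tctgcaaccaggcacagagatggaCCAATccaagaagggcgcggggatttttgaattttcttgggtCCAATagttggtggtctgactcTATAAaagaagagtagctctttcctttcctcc
HIST1H2BJ: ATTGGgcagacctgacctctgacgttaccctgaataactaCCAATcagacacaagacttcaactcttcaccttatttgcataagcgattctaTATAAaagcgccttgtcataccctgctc

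Most listed genes of DNA replication and of mitosis lay below the median gene, and of all those listed only 1 passed. The lists left out some related genes that fell, among them CENPM (-1.50) and ASF1B (-1.34). None of 47 S-phase genes passed; 45 were below 0, with a median of -0.57 (0.01 on TPM as deposited and not centred, where the median gene is 0.46). MCM7, a subunit of the replicative helicase, stood at 149 in sgNS and at 99.2, 77.9 and 73.9 in the cultures (log2 change -1.20), and the thymidine kinase TK1 at 148 against 102, 75.8 and 79.7 (-1.15). All 3 cultures were under the control in both genes. Without sgMETTL16-3, 6 S-phase genes passed, all lower. Of 36 mitotic genes 1 passed, where 0.839% of all genes were lower. AURKB, the kinase of the chromosomal passenger complex, went from 101 to 62.0, 42.5 and 38.4 and fell by 1.46 (limma adjusted p = 0.0268). It did not pass without sgMETTL16-1 or without sgMETTL16-2, where 0 of 36 did, while 7 passed without sgMETTL16-3. The mitotic median was -0.53 (0.05 on TPM as deposited and not centred), and ran from -0.27 in sgMETTL16-1 to -0.99 in sgMETTL16-3.

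Other lower genes included metallothioneins, small cysteine-rich proteins that bind zinc and copper. Of 7 tested members 2 fell, where 0.839% of all genes were lower. MT1G stood at 1446 in sgNS and at 448, 346 and 352 in the cultures (382 ± 57.2, SD, n = 3), and fell by 2.29 (SE 0.46, limma adjusted p = 1.33e-04). MT1F went from 338 to 179.9, 112 and 116 and fell by 1.71 (SE 0.44, limma adjusted p = 0.00708). In both, the control lay above every culture. MT1E was at -1.44 and did not pass, nor did MT2A, the most abundant member, at -0.58. The list's median was -1.03, all 7 were below sgNS in all 3 cultures (31.6% of all genes were), and 0 passed without sgMETTL16-1 and 5 without sgMETTL16-3.

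Among lipid genes, FADS2, the delta-6 desaturase, stood at 151 in sgNS and at 80.8, 50.7 and 56.0 in the cultures, and fell by 1.66 (SE 0.42, limma adjusted p = 0.00705). Every culture was below the control, but FADS2 did not pass without sgMETTL16-1. It was the only member to pass out of 23 listed genes of fatty acid and triglyceride synthesis (median -0.06), where 0.839% of all genes were lower. The acyltransferase gene GPAT3, given below, was not on that list and rose by 2.22. In cholesterol synthesis, FDPS, which makes farnesyl pyrophosphate, was at -1.31 without passing. The median of that list was -0.45, and it was 0.13 on TPM as deposited and not centred.

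Several lower genes encode small parts of large machines, but few members of these lists passed. NDUFB8 and NDUFS6, subunits of respiratory complex I, fell by 1.55 and 1.50 (limma adjusted p = 0.0179 and 0.0317). They were the 2 of 75 respiratory genes that passed (median -0.50), where 0.839% of all genes were lower. PET100, an assembly factor of cytochrome oxidase, went from 272 to 125, 132 and 112 and fell by 1.51. The 1 of 82 ribosomal protein genes that passed was RPS27, which fell by 1.55 (1247 against 586, 641 and 441, limma adjusted p = 0.0465); the list's median was -0.51. A share of 1 in 82 is near the 0.839% of all genes that were lower. Of 48 core spliceosome genes 1 passed, where 0.839% of all genes were lower. It was SNRPF, an Sm protein, which fell by 1.50 (91.9 against 40.5, 54.3 and 31.8, limma adjusted p = 0.0179). On TPM as deposited and not centred the medians of the respiratory, ribosomal and spliceosome lists were 0.09, 0.08 and 0.22. With quantile normalization the ribosomal median was -0.06, beside -0.00 for all genes. Without sgMETTL16-3, 12 respiratory, 10 ribosomal protein and 4 spliceosome genes passed as lower, and without sgMETTL16-1 0 of the 3 lists did.

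The remaining named lower genes have separate roles. SLC38A5, a glutamine transporter, fell by 1.56 (29.4 against 12.2, 12.8 and 11.9), and DPEP1, a dipeptidase, by 1.53 (18.5 against 7.00, 8.08 and 8.04). GPHA2, a glycoprotein hormone subunit, fell by 1.88 (42.8 against 19.5, 11.9 and 12.5), and LGALS2, a galectin, by 1.51 (54.1 against 41.1, 18.1 and 18.1). The cultures were close together in SLC38A5 and DPEP1, while in LGALS2 sgMETTL16-1 lay nearer to the control. Without sgMETTL16-1 none of the 12 lowest protein-coding genes (histones apart) passed, and without sgMETTL16-2 9 did.

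**Figure D2:**
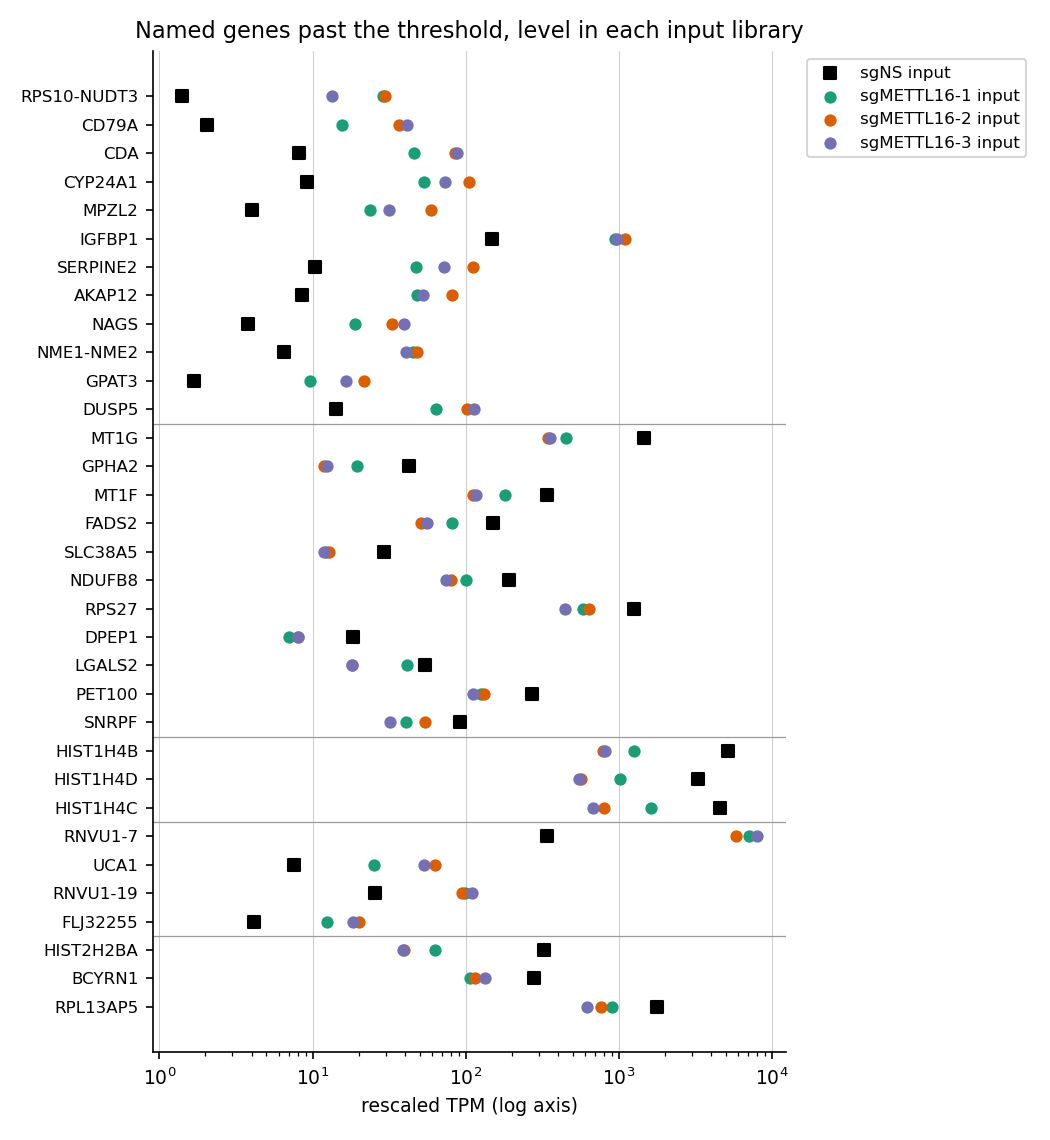
Rescaled TPM (log axis) of genes named by the rule and past the threshold in each input; the black square is sgNS and the circles are the 3 sgMETTL16 cultures. Lines part, from the top, higher protein-coding, lower protein-coding, histone, higher non-coding and lower non-coding genes. SNAR-C4, listed at 0 in the cultures, is left out; in each gene shown all circles lie on 1 side of the square.

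Among the named higher protein-coding genes the most abundant was IGFBP1 (chromosome 7, 45888488 to 45893660), a liver-secreted protein that binds insulin-like growth factors. It stood at 148 in sgNS and at 941, 1099 and 976 in the cultures (1006 ± 82.7, SD, n = 3). The cultures lay close together and far above the control, and it rose by 2.39 (SE 0.46, limma adjusted p = 6.23e-05). It also passed without centring, at 2.76 (limma adjusted p = 0.0282), but not without sgMETTL16-1. Of 29 listed growth factors and binding proteins 3 rose, where 1.10% of all genes did. The others were IGFBP2 (5.94 against 22.8, 26.2 and 32.5) and HBEGF, a ligand of the EGF receptor (1.57 against 5.66, 12.3 and 9.11). FST, which binds activin, was at 1.34 without passing. The list left out some growth factor genes that rose, among them CSF1 (1.83), AREG (1.69) and GDNF (1.58). Ribosome-protected fragments (footprints) of IGFBP1 were sequenced from the same cultures and gave 105 TPM for sgNS, then 443, 448 and 87.2 TPM for the sgMETTL16 guides as deposited.

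Genes of plasminogen activation, protease inhibition and the pericellular matrix gave the largest count of higher genes among the lists. Of 26 tested, 8 rose (1.10% of all genes were higher) and 0 fell, in a list chosen with earlier results of these data known. The inhibitor SERPINE2 stood at 10.3 in sgNS and at 47.0, 112 and 71.6 in the cultures, and rose by 2.33 (SE 0.41, limma adjusted p = 7.39e-06). PLAU, the urokinase activator, went from 7.17 to 23.4, 50.3 and 47.2 and rose by 1.90 (SE 0.40, limma adjusted p = 3.86e-04). Both lay above the control in every culture, with sgMETTL16-1 the lowest of the cultures.

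PLAUR, the receptor of urokinase, rose by 1.53 (1.05 against 4.46, 7.94 and 8.04). TIMP1, an inhibitor of matrix metalloproteinases, rose by 1.85 (84.0 against 255, 458 and 516). SPP1 (osteopontin), THBS1 (thrombospondin) and the granzyme inhibitor SERPINB9 rose by 1.55, 1.50 and 1.37. The other 18 did not pass, and 6 of the 26 had a change below 0. The list's median was 0.53, and it was 0.41, 0.81 and 0.55 in the single cultures. Without sgMETTL16-1, 1 of the 26 passed, and without centring 0 did on rescaled or deposited TPM and 10 on TPM rescaled to protein-coding genes.

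Targets of YAP and TEAD, the transcription factors that the Hippo pathway restrains, had a median of 0.72, and 4 of 19 rose (1.10% of all genes did). They were AKAP12, a scaffold of protein kinase A (8.50 against 47.8, 81.7 and 52.9, a log2 change of 2.30, limma adjusted p = 9.04e-06), CYR61, a matrix-associated ligand of integrins (1.77), ANKRD1 (1.72) and AREG, an EGF receptor ligand (1.69). Of the 19, 16 were above sgNS in all 3 cultures, as were 26.5% of all genes. AREG and ANKRD1 were highest in sgMETTL16-2, at 26.0 and 65.9, and closer to the control in the other cultures. Without sgMETTL16-1, 1 of the 19 passed.

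Feedback genes of MAP kinase signalling included 2 of 21 that rose (1.10% of all genes did), both phosphatases. DUSP5 went from 14.2 to 63.6, 102 and 113 and rose by 2.22 (limma adjusted p = 2.62e-05), and DUSP1 from 14.2 to 40.8, 78.1 and 73.7 and rose by 1.68 (limma adjusted p = 0.00384). None of 17 immediate-early transcription factors passed, at a median of 0.53 that ran from 0.17 in sgMETTL16-1 to 0.95 in sgMETTL16-3. KLF6 was at 1.16, FOSL2 at 1.08 and JUN at 0.96.

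AP-1, the dimer formed by JUN and FOS proteins, binds TGACTCA. Among the 107 higher protein-coding genes 77 had a promoter in RefSeq, and 7 of them held TGACTCA on either strand within 250 bases upstream (9.09%), against 2.30% of all 8235 promoters. It was in 0 of the 43 promoters of lower histone genes and in 0 of the 22 of other lower genes. These groups are too small for such counts to say much about a motif found in 2.30% of promoters. The higher promoters held TATAA in 18 of 77 (23.4%, against 10.1% of all) and CCAAT in 17 (22.1%, against 35.6%). CATTCC, a TEAD motif, was in 10.4% of the higher promoters and in 9.23% of all. TGACGTCA was in 2 of the 77 (2.60%, against 3.18% of all), and GGGCGG, an Sp1 motif, in 61.0% (against 69.1%). The part of AP-1 in these changes was not tested. The 7 promoters are shown as 41 bases around the match, with TGACTCA or its reverse complement in capitals. They lie at chr17:44004478-44004518 (NAGS), chr17:51153364-51153404 (NME1-NME2), chr1:223701402-223701442 (CAPN2) and chr13:97141731-97141771 (MBNL2) on the plus strand, and at chr19:43670332-43670372 (PLAUR), chr15:60398090-60398130 (ANXA2) and chr3:48563860-48563900 (UCN2) on the minus strand. PLAUR is the member of the plasminogen list in this set. NME1-NME2 is a symbol that joins a pair of neighbouring genes. NME1, a part of that pair, stood at 311 in sgNS and at 342, 344 and 278 in the cultures, so this match is uncertain as that of a higher gene.
NAGS: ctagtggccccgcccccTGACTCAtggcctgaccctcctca
NME1-NME2: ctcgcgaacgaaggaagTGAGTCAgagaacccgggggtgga
CAPN2: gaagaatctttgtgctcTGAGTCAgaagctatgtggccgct
MBNL2: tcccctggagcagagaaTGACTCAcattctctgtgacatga
PLAUR: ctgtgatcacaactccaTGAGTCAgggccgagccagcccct
ANXA2: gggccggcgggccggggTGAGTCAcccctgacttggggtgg
UCN2: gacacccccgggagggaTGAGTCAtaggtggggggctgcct

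Enzymes and transporters followed among the higher genes. CDA, which deaminates cytidine, went from 8.18 to 46.2, 84.8 and 87.5 (72.8 ± 23.1, SD, n = 3) and rose by 2.59 (SE 0.41, limma adjusted p = 2.72e-07). CYP24A1, the hydroxylase that inactivates vitamin D, went from 9.23 to 53.4, 105 and 73.4 and rose by 2.52 (SE 0.41, limma adjusted p = 6.88e-07). Every culture exceeded the control in both genes. Of 20 cytochrome P450 and UGT enzymes 3 rose (1.10% of all genes did), CYP24A1 with the aromatase CYP19A1 (1.56) and the bilirubin conjugating UGT1A1 (1.37).

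NAGS, which makes the activator of the urea cycle, rose by 2.28 (3.81 against 18.8, 33.2 and 39.3), and GPAT3, a glycerol-phosphate acyltransferase, by 2.22 (1.68 against 9.57, 21.6 and 16.5). Of 180 solute carriers 2 rose, the glucose transporter SLC2A2 (1.98) and the iron exporter SLC40A1 (1.59), and 1 fell, SLC38A5. These shares are near those of all genes (1.10% higher and 0.839% lower). Of 40 nucleotide enzymes 2 rose (1.10% of all genes did), CDA and AMPD3 (1.39), while TK1 (-1.15) and DUT (-1.05) did not pass. Of 25 NRF2 targets 1 passed, where 1.10% of all genes were higher. It was HMOX1, haem oxygenase (34.5 against 70.6, 157 and 202, a log2 change of 1.53, limma adjusted p = 0.0196). GCLM and GCLC, the subunits of the enzyme that starts glutathione synthesis, were both at 1.01 without passing. Without sgMETTL16-3, 4 NRF2 targets were higher, and 8 solute carriers were lower and 4 higher; without sgMETTL16-1 0 of either list passed.

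Cell surface genes were also among the highest. CD79A, known as a subunit of the B-cell receptor, went from 2.06 to 15.5, 36.4 and 41.6 and rose by 2.91 (SE 0.40, limma adjusted p = 4.57e-10). Among the blood markers, PTPRC, found on all white blood cells, was at 0.0286 or listed at 0 in the inputs, while LYZ (lysozyme) was at 756 in sgNS and at 1372, 1726 and 648 in the cultures. CD14 was between 5.10 and 8.43 and HBA1 between 4.43 and 5.77. MPZL2, an epithelial adhesion protein, went from 4.02 to 23.7, 59.7 and 31.5 and rose by 2.50 (limma adjusted p = 3.41e-07). Of 26 keratin and junction genes 1 rose (1.10% of all genes did), KRT23, by 1.73 (8.11 against 28.4, 71.6 and 26.5). The list's median of 0.44 ran from 0.13 in sgMETTL16-1 to 0.56 in sgMETTL16-2. The summed epithelial markers moved in the same direction, and their part in the result was not tested.

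Targets of p53 included 1 of 30 that passed, where 1.10% of all genes were higher. RRM2B, a subunit of ribonucleotide reductase used in DNA repair, was at 2.41 in sgNS and at 8.32, 22.2 and 7.33 in the cultures, and rose by 1.47 (SE 0.40, limma adjusted p = 0.0151). CDKN1A, the cyclin-dependent kinase inhibitor p21, was at 209 against 447, 855 and 1089, a log2 change of 1.47 (SE 0.46) that did not pass (limma adjusted p = 0.0669). MDM2 was at 38.9 against 107, 191 and 104 (1.34), and did not pass either. The cultures lay above the control in all 3 genes. Between 3 and 6 targets were higher under 6 alternatives, among them 6 on TPM rescaled to protein-coding genes without centring and 5 with quantile normalization. None were higher on rescaled or deposited TPM without centring, or without sgMETTL16-1.

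Liver genes did not move as a block. None of 49 secreted liver proteins and none of 22 hepatocyte transcription factors passed, with medians of -0.07 and -0.15. The secreted liver list took 3.74% of rescaled TPM in sgNS and 5.29%, 5.01% and 4.43% in the cultures. ALB (albumin) was at 1237 in sgNS and at 3139, 4647 and 1597 in the cultures. With quantile normalization 9 of the 49 were higher and the median was 0.31, and without sgMETTL16-3 2 were higher and 3 lower. None of 28 genes of the integrated stress and unfolded protein responses passed, with PPP1R15A, which reverses eIF2 phosphorylation, at 1.35 and MANF, an ER-resident stress protein, at -0.99.

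**Figure D3:**
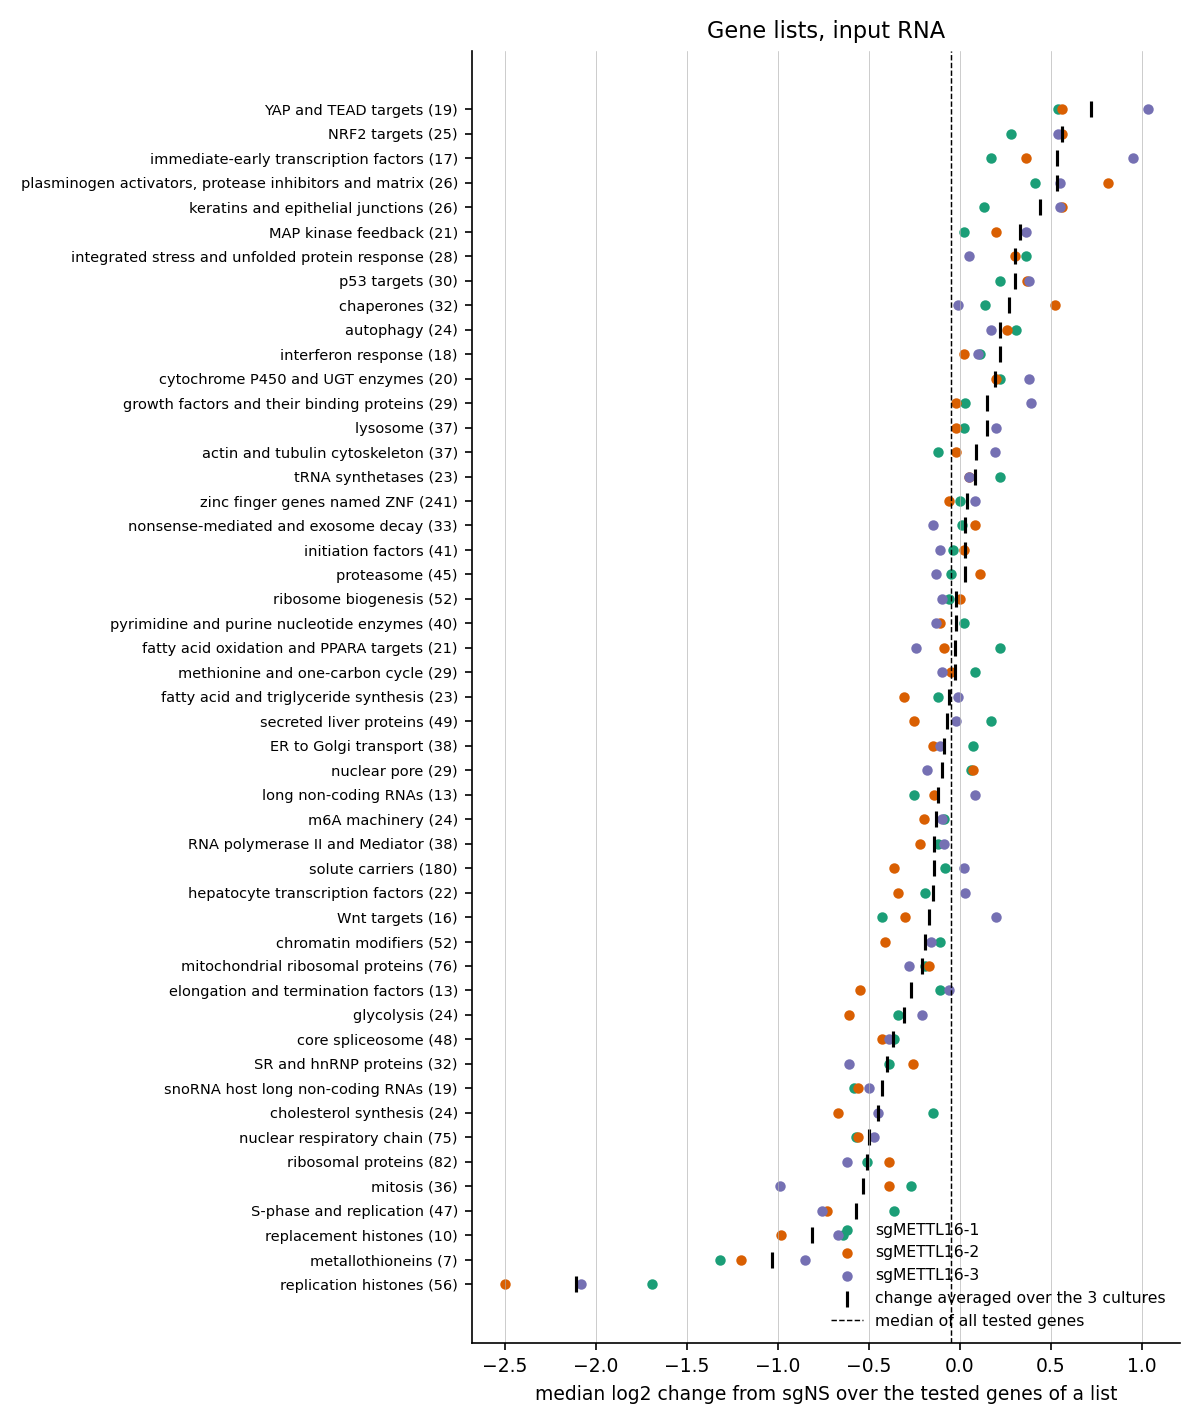
Median log2 change from sgNS over the tested genes of a list (number in brackets) for each sgMETTL16 culture (coloured points) and for the change averaged over the 3 cultures (black tick); the dashed line is the median of all 10608 genes, -0.05. Replication histones lie lowest, at -2.11, and YAP and TEAD targets highest, at 0.72.

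Non-coding RNAs gave both ends of the range. RNVU1-7, a variant of the U1 spliceosomal RNA that the symbol rule did not leave out, was at 337 in sgNS and at 7022, 5837 and 7935 in the cultures, and rose by 3.98 (SE 0.50, limma adjusted p = 1.60e-11). The 16 listed U1 genes and variants, which are near-identical, summed to 1213 in sgNS and to 8919, 7593 and 9978 in the cultures. SNAR-C4 was at 63.4 in sgNS and listed at 0 in all 3 cultures, while its close copies brought the SNAR family to 1669 in sgNS and to 2721, 2039 and 2531. A single member of either family is therefore uncertain. UCA1, a long non-coding RNA, rose by 2.02 (7.62 against 25.3, 63.1 and 53.4), and BCYRN1, a primate brain cytoplasmic RNA, fell by 1.60 (279.7 against 107, 115 and 134). FLJ32255 rose by 1.42 and the pseudogene RPL13AP5 fell by 1.59. A pseudogene can share reads with its parent gene, so the change of RPL13AP5 is uncertain too. RMRP, the RNA of RNase MRP, took 8.72% of rescaled TPM in sgNS and 5.02%, 4.65% and 5.85% in the cultures, and did not pass at -1.12. RNA28S5, ribosomal RNA, rose by 2.92 (62.1 against 571, 481 and 848). Its precursor RNA45S5 stood at 1544 against 3228, 2967 and 3542, and RNA18S5 and RNA5-8S5 were listed at 0 in every input. Reads may be split between these entries, so the size of the RNA28S5 change is uncertain.

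Symbols for readthrough transcripts, which join a pair of neighbouring genes, were also among the calls. Of 46 tested, 6 passed, 4 higher and 2 lower, where 1.94% of all genes passed. RPS10-NUDT3 went from 1.40 to 28.7, 29.8 and 13.3 and rose by 2.93, the highest change among the named protein-coding genes, while RPS10 stood at 2045 against 1802, 1443 and 1449 and NUDT3 at 73.8 against 56.4, 45.2 and 47.4. NME1-NME2 rose by 2.24 (6.50 against 45.1, 48.2 and 40.6), with NME1 at 311 against 342, 344 and 278 and NME2 at 541 against 542, 568 and 456. The single genes carried most of the signal and did not follow the joint symbol.

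Elsewhere a joint symbol and its part moved in opposite directions. SCNM1 was listed at 0 in sgNS and stood at 5.06, 5.96 and 7.70 in the cultures, and TNFAIP8L2-SCNM1 went from 7.87 to 3.34, 2.09 and 0. MTHFS went from 0.629 to 0.772, 15.2 and 6.56, and ST20-MTHFS from 5.00 to 7.57, 0 and 0. All 4 symbols passed. They share exons, so the quantification could assign the same reads to either.

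Changes also followed the level and the span of genes. Among protein-coding genes the 992 with the lowest levels had a median change of 0.12, and the 992 with the highest had -0.29. By gene span (start to end in RefSeq, introns included), the 992 shortest, up to 5053 bases, had a median of -0.34 (-0.31 without histones), and the 992 longest, from 138017 bases, had 0.11. Both gradients were present in sgMETTL16-1 and sgMETTL16-2 and were weak in sgMETTL16-3. Spearman's rho between change and span was 0.351, 0.304 and 0.104 over 9867 genes without histones, given as a description because the genes share their libraries.

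Genes were also split into 3 equal classes by level and 3 by span. In the class of highest levels, the short, middle and long genes had medians of -0.33, -0.18 and -0.06, and in the class of lowest levels they had -0.05, 0.15 and 0.18. The most abundant coding genes also took less of the libraries: the top 50 held 26.3% of coding TPM in sgNS and 20.5%, 20.3% and 22.7% in the cultures. Ribosomal protein, respiratory and histone genes are short and abundant, and the part of these gradients in their changes was not tested.

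**Figure D4:**
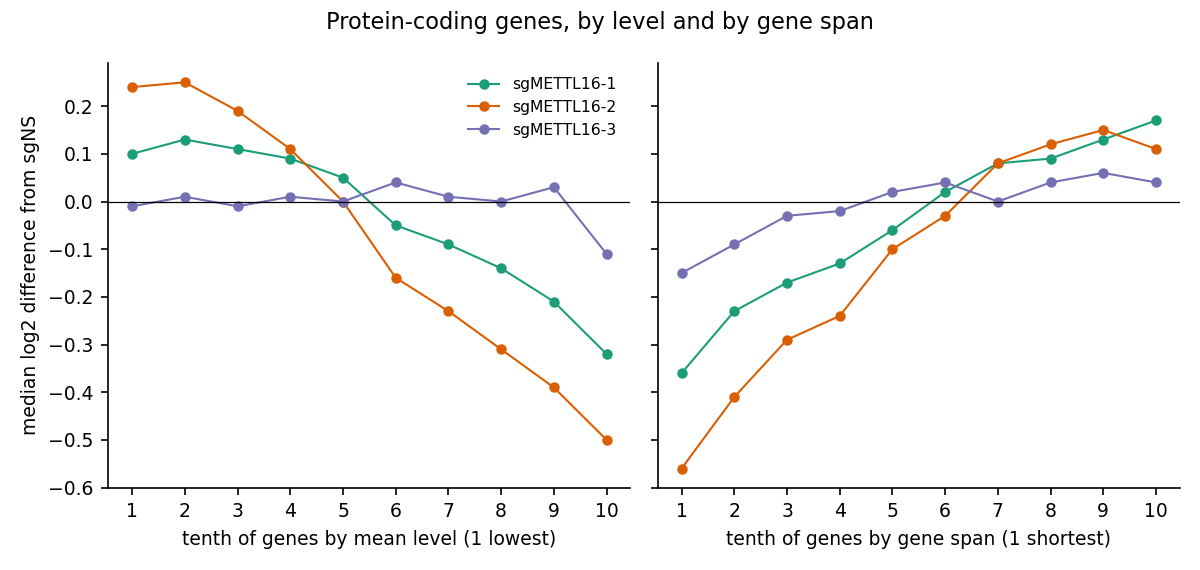
Median log2 difference from sgNS for each sgMETTL16 culture over 10 equal classes of 9917 protein-coding genes, ordered by mean level (left) and by gene span (right). The lines of sgMETTL16-1 and sgMETTL16-2 cross 0 between low and high levels and between short and long genes, and that of sgMETTL16-3 stays between -0.15 and 0.06.

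Footprints of the called genes were sparse. Of the 117 higher genes 41 were listed at 0 in all 4 footprint libraries, as were 2629 of all 10608 genes, and 11 were above 0 in all 4, as were 1776 of all genes. TIMP1 had 64.1 TPM of footprints with the control guide against 203, 281 and 32.0 in the cultures, and SPP1 had 292 against 558, 988 and 218. In both, sgMETTL16-1 and sgMETTL16-2 lay above the control and sgMETTL16-3 below it on this scale, which is not centred. The median log2 ratio to sgNS over the 1776 genes was -0.34, -0.45 and -1.0 for the 3 cultures. HIST1H2AH, which fell by 2.49 in the input, had 759 TPM of footprints with the control guide against 199.8, 92.2 and 63.3. HIST1H4K had 177 TPM of footprints with the control guide against 743, 771 and 88.5, and there the groups overlapped.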

How the data were processed

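The data were input RNA from 4 cultures, with footprints of the same cultures for a few genes. The authors deposited TPM for 26830 symbols, made with RSEM 1.2.31 and STAR on GRCh38, per the submitters' processing notes (the STAR version is not given in the sources used here). TPM was rescaled to 1000000 without small structural RNAs, and log2(rescaled TPM + 1) was centred per library on the median tested gene. Genes with a mean input TPM of at least 1 entered a limma 3.58.1 fit under R 4.3.3 (intensity trend, Benjamini-Hochberg over 10608 genes, threshold 0.05). The lone sgNS library was assumed to vary like the 3 cultures, and prior degrees of freedom were Inf, so each gene took the variance typical of its level. On simulated data with 200 changed genes among 10608, this comparison recovered 10.5%, 78.0% and 99.5% of log2 changes of 1, 1.5 and 2.5. False calls numbered 0, 7 and 11. The simulation gave all 4 libraries independent noise of the same size and changed only genes above a set level. It therefore cannot show how an unusual control or low genes affect the calls.

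Members, gene lists and tests were chosen with earlier results of these data known. Named were METTL16 and MAT2A, the 12 highest and 12 lowest past the threshold among protein-coding genes (mean rescaled TPM of 10 or more, same direction in all 3 cultures, histones apart), the 3 lowest histones, up to 4 non-coding genes per direction, and up to 4 members per described list by smallest p. Further members were named after their values were seen. Some genes chosen this way are not reported here; counts and medians still include them. Of the 10608 symbols 9872 matched RefSeq by name and 587 by an older name. Alternatives covered scaling, pseudocount, filter, moderation and leaving out each culture.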

Additional observations from a re-analysis of the deposited data

How the results depend on the processing

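The count of 206 genes past the threshold (117 higher, 89 lower) depended on scaling. It was 3 (2 and 1) on rescaled TPM without centring, 310 (173 and 137) on centred deposited TPM, 23 (22 and 1) on deposited TPM without centring, 351 (288 and 63) after rescaling to protein-coding genes without centring, and 321 (203 and 118) with quantile normalization. The cause was not tested, beyond that leaving out centring adds the same 0.36 to every change on rescaled TPM and gives a prior of 4 degrees of freedom in place of Inf. Leaving out 1 culture at a time gave from 35 to 566 genes, from 27 to 229 higher and from 8 to 337 lower. The lowest counts came without sgMETTL16-1, where the median SE was 0.605 in place of 0.404, and the highest without sgMETTL16-3. Pseudocounts of 0.1 and 0.5, no filter, a mean of at least 5 TPM and moderation without a trend gave from 210 to 291 genes. MAT2A changed sign, to 0.15, on deposited TPM without centring. Of the 206 genes none passed in fewer than 5 of the 13 alternatives, and none passed in all 13.

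No paired analysis was possible because the control is a single culture and shares fewer than 2 replicate numbers with the sgMETTL16 cultures. TPM carries no read totals, so depth sets no limit that can be stated, and the lone control leaves its own error unmeasured: any gene whose sgNS value is unusual appears as a change in all 3 cultures.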
